A study of Homo sapiens with 6 samples.

Results

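RNA polymerase II is the enzyme that makes messenger RNA, and Mediator is the large complex that links transcription factors bound at enhancers to the polymerase at the promoter. The transcripts that code for their subunits were measured in HEK293T cells held in prometaphase, with and without a plasmid coding for Staufen1 (Stau1), a protein that binds double-stranded stretches of RNA. The group comprised every row of the array table named for an RNA polymerase II subunit (POLR2A to POLR2L) or for a Mediator subunit (MED), together with CCNC, CDK8, CDK7, CDK9 and CCNT1, which code for cyclins and kinases of the transcription machinery. It held 44 of the 37879 rows. POLR2A, the largest subunit, was set against the other subunits because of its change on these same arrays. Its values were therefore selected on this contrast and are given as a description with no test.

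Total RNA was hybridized to 6 Illumina HumanWG-6 v3 arrays, 3 of cells that received an empty vector (control) and 3 of cells that received a plasmid for Stau155-FLAG, the FLAG-tagged 55-kDa isoform of Stau1. HEK293T is a human embryonic kidney line in which the SV40 large T antigen is made. Every culture, controls included, received nocodazole, which blocks spindle assembly (50 ng/ml, 15 h per the labels; the time stated in the methods is longer). A Rous sarcoma virus promoter drives the Stau155-FLAG plasmid named in the methods. Neither source says whether the 3 samples of a group came from separate cultures, so that the p-values measure the spread between these samples, which may be technical.

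The polymerase holds POLR2A and POLR2B, which together form the catalytic centre, and smaller subunits, some of which it shares with RNA polymerases I and III. POLR2A ends in the C-terminal domain (CTD), a long run of repeats that is phosphorylated by CDK7 as the polymerase leaves the promoter and by CDK9 with cyclin T1 (CCNT1) as it is released from pausing. Mediator is built of a head, a middle, a tail and a separable kinase module that holds CDK8 and cyclin C (CCNC). In mitosis most transcription stops and most of the polymerase leaves the condensed chromosomes.

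A row is 1 gene. Its signal intensity on each array was background-corrected, quantile-normalized and put on the log2 scale. Levels of different rows depend on their probes and are not set against each other. A row was kept when its detection p-value, which sets its intensity against negative control beads on that array, was under 0.05 on at least 3 of the 6 arrays. All 13 polymerase rows, 25 of the 28 Mediator rows and the rows of CDK7, CDK9 and CCNT1 passed, 41 of 44 rows in all, among 13285 rows kept. The rows of MED31, a middle subunit, MED12L, a paralog of MED12, and MED13, a subunit of the kinase module, were detected on 0 of the 6 arrays. The detection p of MED13, which combines more than 1 probe, was 0.0781 to 0.346. POLR2E, POLR2J2, MED1, MED7, MED14 and MED17 had no row that matched by name and were not analysed here.

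Several facts hold for all rows. The median signal intensity ranged from 83.0 to 102.2 between arrays and the number of rows detected from 12730 to 13469. Control replicate 3 correlated with the Stau1 arrays at r = 0.995 to 0.996 over the kept rows, whereas the control arrays correlated with each other at 0.987 to 0.992. All 8 mitotic markers listed (CCNB1, PLK1 and others) were detected on every array, with a summed intensity of 19850 to 31190 in controls and 23740 to 26550 in Stau1 samples. The 6 epithelial and mesenchymal markers and 3 of 4 neuronal genes known in HEK293 lines were likewise detected, whereas PTPRC, CD3E, ALB, COL1A2, COL3A1 and DCN, which mark lymphocytes, hepatocytes and fibroblasts, were detected on no array. The row of STAU1 itself gave log2 intensities of 11.19, 11.38 and 11.36 in controls and 11.39, 11.51 and 11.47 in Stau1 samples. The groups did not overlap, with a change of 0.15 (SE 0.09). Which part of the transcript its probes read is not given in the sources used here. In bulk samples, fewer cells of a type and less RNA per cell cannot be told apart.

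POLR2A was the member with the largest change. Its promoter and that of POLR2B, its partner in the catalytic centre, are shown because both code for the active site, and their changes are set side by side below. Both stretches are the 130 bases before the annotated start (RefSeq, GRCh38.p14), at chr17:7484236-7484365 on the plus strand for POLR2A and at chr4:56978766-56978895 on the plus strand for POLR2B, written 5′ to 3′ with the motif matches in capitals.
POLR2A: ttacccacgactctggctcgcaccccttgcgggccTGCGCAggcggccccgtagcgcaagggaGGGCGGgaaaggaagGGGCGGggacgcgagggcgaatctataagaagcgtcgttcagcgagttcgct
POLR2B: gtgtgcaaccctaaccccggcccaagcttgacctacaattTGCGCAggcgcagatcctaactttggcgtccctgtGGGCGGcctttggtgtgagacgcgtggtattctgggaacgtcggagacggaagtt
The capitals mark an NRF1 core (TGCGCA) and GC boxes (GGGCGG). The NRF1 core lay at -95 to -90 in POLR2A and at -90 to -85 in POLR2B, counted from the start. POLR2A had GC boxes at -67 to -62 and at -52 to -47, and POLR2B had one at -55 to -50 and another just downstream of its start. Both promoters thus held an NRF1 core and 1 GC box at similar distances before the start, and their other GC boxes lay on opposite sides of it. A match is a description and not a binding site.

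On the 6 arrays the log2 intensity of POLR2A was 10.70, 10.72 and 10.92 in control replicates 1 to 3 and 11.25, 11.20 and 11.36 in Stau1 replicates 1 to 3. Every Stau1 sample lay above every control, and the highest control was replicate 3. The change was 0.49 on the log2 scale (SE 0.10), or 1.41-fold. The signal intensities before any correction were 1351, 1636 and 2513 in controls and 2329, 2629 and 2920 in Stau1 samples, so that control replicate 3 exceeded Stau1 replicate 1 on that scale. As a rank among all rows of its own array, a measure that does not depend on the brightness of the array, POLR2A stood at percentile 94.7, 94.8 and 95.3 in controls and 96.3, 96.1 and 96.5 in Stau1 samples. The ranks did not overlap. This restates the log2 values above and adds no second measure, since quantile normalization sets a value by its rank within the array. Between 32 and 48 beads were read for POLR2A on each array, with a standard error over beads of 2.65% to 4.47% of the signal.

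Among the 13285 kept rows, POLR2A ranked 2 by unadjusted p, the value it was chosen by, and 54 by size of rise. Its rank by p was 68 with median scaling, 29 without control replicate 3 and 12 with no variance trend. With limma and Benjamini-Hochberg adjustment over these rows, 0 rows (0% of 13285) passed an adjusted p of 0.05, POLR2A included. At an unadjusted p under 0.05, 319 rows (2.4%) were higher and 176 rows (1.32%) were lower in Stau1 samples. POLR2A was the 1 member among these. Without control replicate 3, 39 rows (0.294%) passed the adjusted threshold and the change of POLR2A was 0.56 (SE 0.10). POLR2A was the 1 member among these rows, from which nothing is read, since it was chosen on the same arrays. The change of POLR2A stayed between 0.45 and 0.56 when any 1 array was left out.

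The other subunits that belong to RNA polymerase II alone had smaller changes, each with overlapping groups. POLR2B gave log2 intensities of 10.17, 10.54 and 10.31 in controls and 10.19, 10.37 and 10.24 in Stau1 samples, with the groups overlapping and a change of -0.07 (SE 0.12). POLR2C, which scaffolds the assembly of the enzyme, gave 10.79, 10.61 and 10.90 in controls and 10.85, 10.71 and 10.75 in Stau1 samples. Its 2 group means differed by 0.0024. POLR2D and POLR2G form the stalk that joins the polymerase near the RNA exit. POLR2D gave 11.08, 10.82 and 10.79 against 10.82, 10.97 and 10.93. POLR2G gave 12.23, 12.37 and 12.14 against 12.02, 12.23 and 12.23. The groups overlapped for both stalk subunits, with changes of 0.01 and -0.09. POLR2I, a zinc-binding subunit with a part in transcript cleavage, varied little, at 11.43, 11.47 and 11.56 in controls and 11.42, 11.49 and 11.43 in Stau1 samples.

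POLR2J, the assembly partner of POLR2C, has near-identical copies in the genome, and probe sequences were not used here, so that the rows of POLR2J, POLR2J3 and POLR2J4 may share signal. POLR2J gave 7.995, 8.04 and 8.31 in controls and 8.25, 8.23 and 8.06 in Stau1 samples. POLR2J3 gave 11.04, 10.91 and 10.95 against 11.01, 10.94 and 10.85. POLR2J4 is a transcribed pseudogene that codes for no known subunit, but its row matched by name and is counted with the polymerase rows. POLR2J4 lay close to background, was detected on 3 of the 6 arrays, and gave 4.95, 5.04 and 5.08 against 5.09, 5.03 and 5.21. The groups overlapped in each of these rows, with changes of 0.06, -0.03 and 0.08.

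The 4 subunits shared with RNA polymerases I and III had a median change of 0.01. POLR2F gave 14.06, 13.93 and 14.12 in controls and 14.07, 13.93 and 14.04 in Stau1 samples. POLR2H gave 11.82, 11.86 and 11.78 against 11.92, 11.79 and 11.89. Neither separated the groups. POLR2K, a small zinc-binding subunit, had the lowest change of the polymerase rows, -0.15 (SE 0.16), from 6.73, 6.85 and 7.01 in controls and 6.86, 6.76 and 6.51 in Stau1 samples. POLR2L had the highest change of the rows other than POLR2A, 0.13 (SE 0.12), from 9.18, 9.06 and 9.13 in controls and 9.35, 9.32 and 9.08 in Stau1 samples. Stau1 replicate 3 was the lowest of the Stau1 samples in both rows, and the groups overlapped in both.

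**Figure D1:**
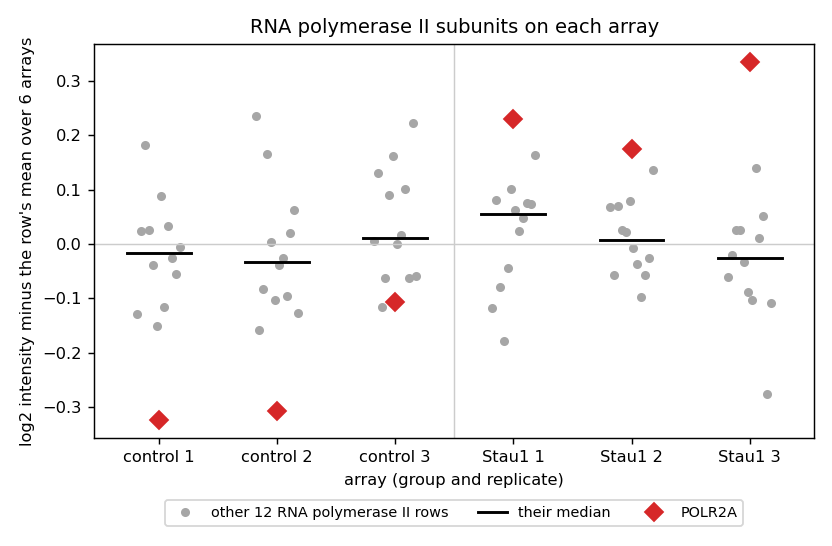
The log2 intensity of each RNA polymerase II row minus its own mean over the 6 arrays (vertical axis) is plotted for each array (horizontal axis), with POLR2A as a diamond, the 12 other rows as points and their median as a bar. POLR2A lies below all 12 other rows on control replicates 1 and 2, above 1 of 12 on control replicate 3, and above all 12 on each Stau1 array.

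Among the 12 polymerase rows other than POLR2A, 6 were higher and 6 were lower in Stau1 samples, with a median change of -0.01 and a range from -0.15 to 0.13. The groups did not overlap in 0 of them, where 4.51% of all kept rows were higher and 3.4% lower without overlap, so that 0 of 12 is close to the background. The 95% confidence interval of each (limma) held 0. These intervals reached from -0.49 at the lowest to 0.39 at the highest bound, and were narrower for some rows, such as POLR2F (-0.19 to 0.14) and POLR2H (-0.14 to 0.23). With 3 arrays a group, changes inside a row's interval are those that its values do not exclude at the 95% level. Over all kept rows the median change was -0.0021, with 6559 rows higher and 6726 lower. Without control replicate 3, again 6 of the 12 polymerase rows were higher and 6 lower, with a median of 0.0090.

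The distance between POLR2A and the rest of the enzyme was taken within each array, as the deviation of POLR2A from its own mean minus the median deviation of the 12 other rows. It was -0.31, -0.28 and -0.12 in control replicates 1 to 3 and 0.17, 0.17 and 0.36 in Stau1 replicates 1 to 3. The group means were -0.23 ± 0.10 and 0.23 ± 0.11 (SD, n = 3), a difference of 0.47 (SE 0.09). With the mean of the other rows in place of the median it was 0.50, and with the rows that are not shared with RNA polymerases I and III alone it was 0.49.

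**Figure D2:**
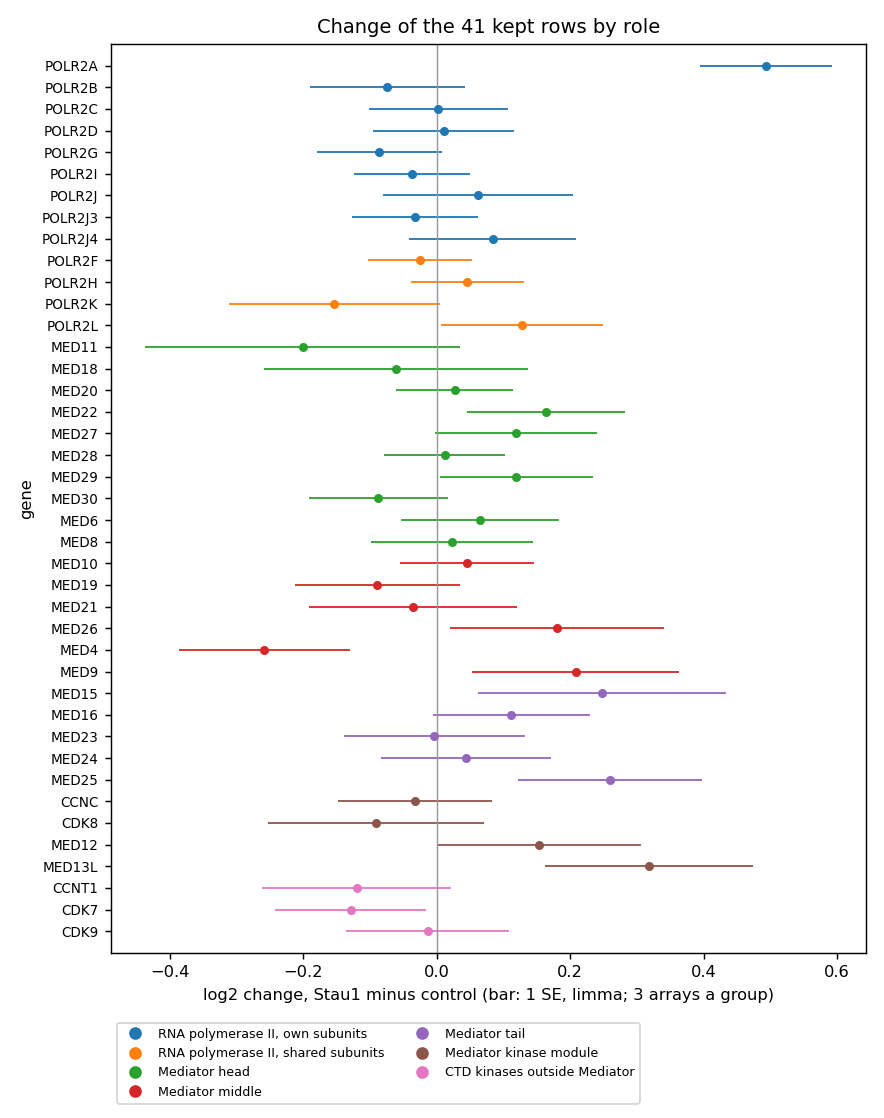
The log2 change of each of the 41 kept rows, Stau1 minus control (horizontal axis; bars are 1 SE from limma, 3 arrays a group), is plotted by gene (vertical axis) and coloured by role. POLR2A lies at 0.49, and the other 40 rows lie between -0.26 and 0.32.

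The Mediator transcripts were spread on both sides of 0. Of 25 rows, 16 were higher and 9 were lower in Stau1 samples, with a median change of 0.04, and 0 passed the test (the lowest adjusted p among all members was 0.999). The median SD within a group was 0.15 in controls and 0.13 in Stau1 samples, and the median size of the change was 0.09. Under median scaling of the arrays the median over all kept rows itself shifted to 0.07 and that of Mediator to 0.13. Without control replicate 3, 15 Mediator rows were higher and 10 lower, and with each array left out in turn the median ranged from 0.03 to 0.09 (without control replicate 1).

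The head contacts the polymerase and holds the pre-initiation complex together. Of its 10 rows, 7 were higher and 3 lower, with a median of 0.03. The highest was MED22, at 9.70, 9.76 and 9.98 in controls and 10.04, 9.83 and 10.06 in Stau1 samples, where only control replicate 3 reached into the Stau1 range. The lowest was MED11, the partner of MED22 in the head, with 7.06 in control replicate 1 against 6.10 and 6.11 in the other two controls and 6.05, 6.11 and 6.50 in Stau1 samples. That single array set the sign: the change of MED11 was -0.20 (SE 0.24) over all arrays and 0.12 without control replicate 1. MED6, MED8, MED18, MED20, MED27, MED28, MED29 and MED30, the other head rows, changed by -0.09 to 0.12.

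The middle of Mediator transmits contacts between the head and the kinase module. Of its 6 rows, 3 were higher and 3 lower. MED4 had the lowest change of all members, -0.26 (SE 0.13), with 10.53, 10.53 and 10.23 in controls and 9.97, 10.38 and 10.16 in Stau1 samples. Control replicate 3 lay below Stau1 replicate 2, so that the groups overlapped. MED9 was the highest of the middle, with 7.85, 8.14 and 8.40 against 8.31, 8.29 and 8.42 and a change of 0.21 (SE 0.15). The spread of MED9 was wide in controls (SD 0.28) and narrow in Stau1 samples (SD 0.07). Without control replicate 3 the changes were -0.36 for MED4 and 0.34 for MED9, with limma adjusted p-values of 0.273 and 0.365. MED9 was at 0.07 without control replicate 1 and at 0.06 with the background inferred from all rows, and MED4 was at -0.16 without Stau1 replicate 1. MED10, MED19, MED21 and MED26 changed by -0.09 to 0.18.

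The tail receives most of the transcription factors that call on Mediator. Of its 5 rows, 4 were higher and 1 was lower, with a median of 0.11. MED25, bound by several activators, gave 8.53, 8.41 and 8.19 in controls and 8.78, 8.57 and 8.56 in Stau1 samples, so that the groups did not overlap, with a change of 0.26 (SE 0.14). MED23 was the lowest, with 8.11, 8.42 and 8.38 against 8.32, 8.29 and 8.30, and its Stau1 samples lay inside the control range. MED15 (0.25), MED16 (0.11) and MED24 (0.04) lay between them, with overlapping groups. The changes of MED25 and MED15 were 0.10 and 0.02 with a background inferred from all rows, and MED15 was at 0.07 without control replicate 2.

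The kinase module binds reversibly and, when bound, keeps Mediator from the polymerase. CDK8, its kinase, gave 7.94, 7.67 and 7.69 in controls and 7.41, 7.90 and 7.71 in Stau1 samples. Its cyclin, CCNC, gave 10.23, 10.36 and 10.13 against 10.01, 10.32 and 10.28. The groups overlapped for both, and both were lowest on Stau1 replicate 1. MED12, which activates the kinase, changed by 0.15 (SE 0.15). MED13L, one of the paralogs that link the module to the rest of Mediator, gave 5.42, 5.52 and 5.60 in controls and 5.66, 6.12 and 5.71 in Stau1 samples, without overlap, and its change of 0.32 (SE 0.16) was the second highest of the members. Its signal was close to background, and its change was 0.02 when the background was inferred from all rows.

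None of the kinases and cyclins that act on the CTD outside Mediator passed the test (0 of 3 rows). CDK7, the kinase of the general factor TFIIH, gave 10.21, 9.96 and 9.95 in controls and 9.81, 9.95 and 9.97 in Stau1 samples, a change of -0.13 (SE 0.11). CDK9, the kinase of P-TEFb, gave 8.97, 8.94 and 8.78 against 8.98, 8.85 and 8.82, a change of -0.01, which was 0.08 with median scaling. CCNT1, the cyclin that activates CDK9, gave 6.53, 6.59 and 6.60 against 6.49, 6.39 and 6.48. Its groups did not overlap, with a change of -0.12 (SE 0.14; limma adjusted p = 0.999), and it was at -0.0097 with a background inferred from all rows.

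Counting all 41 kept members, the groups did not overlap in 3 higher rows (POLR2A, MED25 and MED13L) and 1 lower row (CCNT1). Over all kept rows, 599 (4.51%) were higher and 452 (3.4%) were lower without overlap. With POLR2A set aside, the 2 higher and 1 lower of 40 rows were close to that background.

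**Figure D3:**
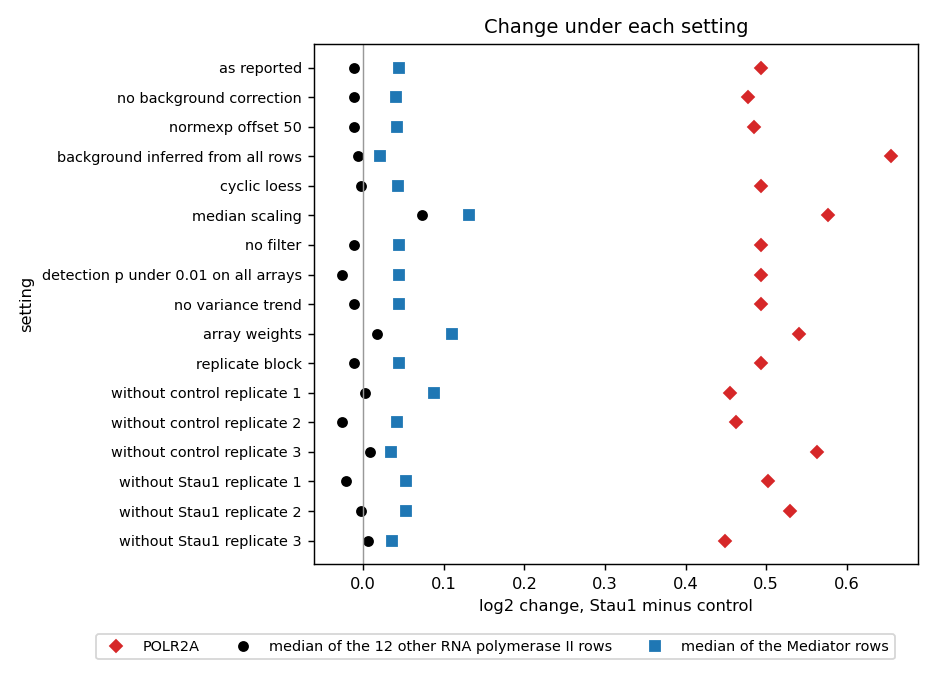
The log2 change of POLR2A, the median change of the 12 other RNA polymerase II rows and that of the Mediator rows (horizontal axis) are plotted for each way of processing the arrays and for each array left out (vertical axis). POLR2A lies between 0.45 and 0.65 in each, and the other polymerase rows have a median between -0.03 and 0.07.

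The values of POLR2A over the 6 arrays were followed most closely by rows outside the family, as a description over 6 points that share their groups. Among all kept rows the closest were DKFZP686O24166 (Pearson r = 0.992), HCFC1 (0.989), LOC647044 (0.988), SMCR7L (0.988) and EHD1 (0.986). HCFC1, a host cell factor that binds chromatin regulators, had a mean of 12.04 ± 0.05 in controls and 12.41 ± 0.08 in Stau1 samples (SD, n = 3). These rows were picked for following POLR2A, which was chosen because its groups differ. The distance between their groups therefore follows from that choice and is no separate result. Within the family the closest were MED22 (0.79), POLR2J4 (0.74), MED9 (0.73) and MED29 (0.73), and the most opposed were MED4 (-0.78), CCNT1 (-0.70) and CDK7 (-0.61). The median r of the 40 other members with POLR2A was 0.07, beside -0.01 for all kept rows.

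Other parts of the transcription machinery were read from lists of related genes. The general transcription factors bring the polymerase to the promoter. Of 30 rows kept of 32 listed, 12 were higher and 18 were lower, with a median of -0.04 that turned to 0.02 without Stau1 replicate 1. TAF4, a TFIID subunit, was the highest, with 9.32, 9.37 and 9.39 in controls and 9.52, 9.90 and 9.79 in Stau1 samples, and its change was 0.38 (SE 0.12). TAF6, a further TFIID subunit, changed by 0.21, and the lowest were ERCC2, a helicase of TFIIH (-0.23, SE 0.15), and TAF8 of TFIID (-0.19, SE 0.30). TAF4 was the 1 row of this list whose groups did not overlap and the 1 row with an unadjusted p under 0.05; 1 of 30 is close to the shares over all kept rows (4.51% and 2.4% for higher rows).

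The factors of pausing and elongation act on the polymerase once it has started. Of 29 rows kept of 30 listed, 21 (72.4%, beside 49.4% of all kept rows) were higher, with a median of 0.08. The list also held CDC2L6, the older symbol of CDK19, a paralog of CDK8 and thus of the Mediator kinase. It was among the higher rows, and its change of 0.08 was the median. The highest was MEPCE, which caps the 7SK RNA that holds P-TEFb inactive, with 10.58, 10.93 and 11.20 in controls and 11.43, 11.28 and 11.37 in Stau1 samples and a change of 0.46 (SE 0.13). CDC2L5, the older symbol of the CTD kinase CDK13, gave 7.95, 8.15 and 8.43 against 8.55, 8.62 and 8.54, a change of 0.40 (SE 0.15). The groups did not overlap in either row, and the controls spread more widely (SD 0.31 for MEPCE and 0.24 for CDC2L5) than the Stau1 samples (SD 0.08 and 0.05). CDC73 (-0.21) and WDR61 (-0.18), both of the PAF1 complex, were the lowest. The groups also did not overlap for AFF1 (0.24) and CCNK (0.16), and SUPT5H (0.29, SE 0.13), which codes for a subunit of DSIF, had an unadjusted p under 0.05 with MEPCE and CDC2L5; AFF1, CCNK and SUPT5H were chosen after their values were seen. In all, 4 of the 29 rows were higher without overlap and 3 were higher at an unadjusted limma p under 0.05. Over all kept rows these shares were 4.51% and 2.4%. Whether the list as a whole differs from all kept rows was not tested. With limma adjustment over all kept rows 0 of the 29 passed.

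The list of CTD phosphatases and polymerase assembly factors held 11 kept rows of 14 listed, 7 higher and 4 lower, with a median of 0.05 that ranged from -0.01 (without Stau1 replicate 3) to 0.07 with each array left out. Its extremes were small: the phosphatase SSU72 at 0.13 and GRINL1A at 0.12, and RPRD1A at -0.17 and CTDSPL, a small CTD phosphatase, at -0.14. Subunits that belong only to RNA polymerases I and III gave a comparison with the other nuclear enzymes. Of 16 kept rows of 19 listed, 12 were higher and 4 lower, with a median of 0.05. POLR3A, the largest subunit of RNA polymerase III and the counterpart of POLR2A, had the highest change, 0.28 (SE 0.15). It gave 9.41, 9.56 and 10.05 in controls and 9.98, 10.00 and 9.89 in Stau1 samples. Its groups overlapped, with control replicate 3 above every Stau1 sample. POLR3G (-0.29, SE 0.20) and TWISTNB (-0.09) were the lowest, and 0 of the 16 passed the test.

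**Figure D4:**
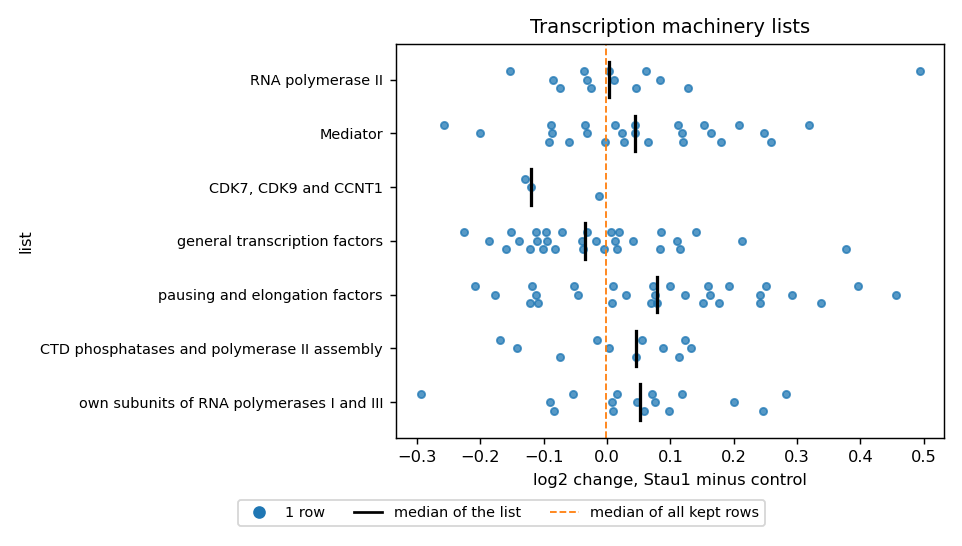
Each point is the log2 change, Stau1 minus control (horizontal axis), of 1 kept row in a list of the transcription machinery (vertical axis), with the median of each list as a bar and that of all kept rows as a dashed line. POLR2A, at 0.49, lies apart from the other polymerase II rows, and the list medians lie between -0.12 and 0.08.

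A promoter entry was found by symbol for 31 of the 44 members (RefSeq, GRCh38.p14; 250 bases before and 50 after the start). Sequence motifs were searched on both strands of these windows. Each member was read from 1 entry, whereas all promoters means every entry of the reference, whether or not its gene was detected here. The shares below are therefore not matched to the members by detection. The GC box (GGGCGG) was held by 22 of the 31 (71%) and by 45% of all 35116 promoters. The ETS core (CCGGAAG) was held by 10 (32.3%, beside 10.3% of all), among them POLR2C, POLR2D and POLR2F but not POLR2A. The NRF1 core was held by 6 (19.4%, beside 8.24%): POLR2A, POLR2B, POLR2F, MED11, MED18 and MED9. The YY1 core (AAGATGGC) was held by 4 (12.9%, beside 2.89%), all of Mediator, and its first letters can overlap the end of an ETS core. The CCAAT box was held by 8 (25.8%, beside 34.6%) and the TATA box (TATAAA) by 1, MED16 (3.23%, beside 11.5%). The median GC content was 61.3% for the members, beside 58.7% for all promoters, and that of POLR2A was 61.3%.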

How the data were processed

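Per the file headers, the deposited table was a BeadStudio gene profile without normalization. For each gene and array the authors deposited a signal intensity that is the mean over the probes of the gene, a detection p-value against negative control beads, the standard error over beads (intensity units) and the mean count of beads (whole or fractional). Each value column belonged to a sample. Samples were grouped by the transfection in their labels.

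Intensities were processed with limma 3.58.1 in R 4.3.3: normexp with an offset of 16, quantile normalization, log2. Its background came from detection p-values of the 30932 rows of 1 probe (bead counts whole, and detection p a whole multiple of 1/759 within 0.002 steps). Rows whose detection p was under 0.05 on 3 or more of the 6 arrays were kept. Groups were compared by lmFit and eBayes (variance trend on), and p-values were adjusted by Benjamini-Hochberg, threshold 0.05. The smallest p of an exact permutation test at this size is 0.1. The number of arrays limits the precision. The fit was tested on simulated data.

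The members and the gene lists were chosen with earlier results of these data known. The rows named with values were POLR2A, the other polymerase rows, the highest and lowest row of each Mediator module, CCNC, CDK7, CDK8, CDK9 and CCNT1, the 2 highest and 2 lowest rows of each related list, the 5 rows most like POLR2A, and STAU1. A row that the rule names is not reported here. Gene symbols were updated through a RefSeq table (GRCh38.p14), used for names and promoters. A relation with protein length was planned, but a protein table was not used here. The alternatives concerned the background (uncorrected, offset 50, or inferred from all rows), the scaling (median scaling or cyclic loess), the filter (absent, or detection p under 0.01 on every array) and the fit (array weights, a replicate block, no variance trend, the methods' t-test). Each array was also left out in turn, with the rows and values kept as they were. Same-numbered samples were checked for pairing. Figures were drawn with matplotlib 3.10.9.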

Additional observations from a re-analysis of the deposited data

How the results depend on the processing

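The change of POLR2A ranked 1 among the kept members under every setting run. With the background inferred from all rows it was 0.65, and its distance from the other polymerase rows was 0.65. Median scaling moved the median of all kept rows from -0.0021 to 0.07, and those of all members to 0.10, Mediator to 0.13, the polymerase rows but POLR2A to 0.0737, the general transcription factors to 0.0610, pausing and elongation to 0.18, CTD phosphatases and assembly to 0.12 and RNA polymerases I and III to 0.14. Array weights moved the Mediator median to 0.11. With each array left out in turn, calls over all kept rows ranged from 0 to 39 and those among members from 0 to 1, both above 0 only without control replicate 3; the median of RNA polymerases I and III ranged from -0.0015 (without control replicate 1) to 0.0664, and that of pausing and elongation from 0.0223 to 0.16 (without control replicate 3). Under every setting with all 6 arrays, limma called 0 rows. With array weights its lowest adjusted p was 0.0551, close to the threshold. POLR2A had this value and was chosen on the same arrays, so nothing is read from it. The weights ranged from 0.40 (control replicate 1) to 3.33 (Stau1 replicate 3). At an unadjusted p under 0.05 limma counted 495 rows, 229 with median scaling, 1564 with no filter and 1298 with array weights. The methods' t-test, run on the gene rows as processed here, gave 464 rows at an unadjusted p under 0.05, 2 of them members. Of these rows 0 passed the 2-fold threshold and 0 Benjamini-Hochberg adjustment. The authors normalized their values in another way and counted probes. Their own count past 2-fold is therefore not set against this one.

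The labels give both groups the same replicate numbers, but deviations of same-numbered samples correlated at 0.02, 0.26 and -0.14, so the numbers were not taken as pairs. A fit with the replicate block called 0 rows and counted 604 at an unadjusted p under 0.05. The number of arrays and, for MED13L, MED18 and POLR2J4, a signal close to background limit what could be detected. The relation with protein length was not run.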
